A study of Mus musculus with 6 samples.

Results

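The 7 genes described here are the alpha-like and beta-like globin genes of the mouse that were listed by symbol for this account, namely Hba-x, Hba-a1, Hba-a2, Hbb-y, Hbb-bh1, Hbb-b1 and Hbb-b2. They were found by those symbols among the 37576 genes of the deposited count table, each under 1 gene identifier, and all 7 passed the filter on low counts that left 16511 genes.

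Each library came from the whole liver of a C57BL/6 mouse embryo at embryonic day 12.5, dispersed to single cells before total RNA was taken with Trizol. The E861A group held livers 6, 16 and 19, homozygous for the E861A mutation of ADAR1 (genotype Adar1E861A/E861A), which leaves the RNA-editing enzyme ADAR1 unable to convert adenosine to inosine. The wild-type group held livers 2, 15 and 17 of the same strain and age. All 3 E861A embryos were male, wild-type embryo 2 was male, and wild-type embryos 15 and 17 were female, so sex was partly tied to genotype. A fit that takes sex as a covariate can therefore compare the genotypes only through wild type 2, as does a fit of male libraries only. The mutation is in the germ line and so is carried by every cell of the embryo, and no litter is named for any embryo. The labels do not say whether blood was washed from the livers.

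Haemoglobin is built of paired alpha-like and beta-like chains, each holding a haem group. The mouse makes its first red cells in the yolk sac, and these primitive cells use the embryonic chains zeta (Hba-x), beta-h1 (Hbb-bh1) and epsilon-y (Hbb-y). The fetal liver then makes definitive red cells, which use the adult chains encoded by Hba-a1 and Hba-a2 and by Hbb-b1 and Hbb-b2. Within the primitive lineage Hbb-bh1 leads early and Hbb-y later.

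The alpha family lies on chromosome 11 in the order Hba-x, Hba-a1, Hba-a2 on the plus strand, and spans 20.9 kb. The beta family lies on chromosome 7 in the order Hbb-y, Hbb-bh1, Hbb-b1, Hbb-b2 on the minus strand, and spans 40.7 kb. In the build of the count table, NCBIM37, the genes occupy chr11:32176400-32178116 (Hba-x), chr11:32183511-32184465 (Hba-a1), chr11:32196489-32197301 (Hba-a2), chr7:111000259-111001754 (Hbb-y), chr7:110990150-110991678 (Hbb-bh1), chr7:110975048-110976610 (Hbb-b1) and chr7:110961038-110962510 (Hbb-b2). In both families the embryonic genes come before the adult ones along the direction of transcription.

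The bases ahead of Hba-x, Hba-a1 and Hbb-y are shown because these 3 genes stand for the embryonic and adult sides of the comparisons that follow. RefSeq promoters of GRCm38.p6 were matched for 4 of the 7 genes (Hba-x, Hba-a1, Hba-a2 and Hbb-y), and the 250 bases before each start are given. Capitals mark the letters searched on both strands: GATAA, the core of sites for GATA factors, with CACCC for KLF factors, CCAAT for CCAAT-box factors, TGACC for nuclear receptors and TATAA for the TATA box.
Hba-x, chr11:32276350-32276599, plus strand: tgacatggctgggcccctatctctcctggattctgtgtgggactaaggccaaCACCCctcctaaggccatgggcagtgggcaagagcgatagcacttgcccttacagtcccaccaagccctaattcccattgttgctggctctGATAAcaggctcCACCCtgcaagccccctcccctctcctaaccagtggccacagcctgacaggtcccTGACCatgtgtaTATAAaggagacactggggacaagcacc
Hba-a1, chr11:32283422-32283671, plus strand: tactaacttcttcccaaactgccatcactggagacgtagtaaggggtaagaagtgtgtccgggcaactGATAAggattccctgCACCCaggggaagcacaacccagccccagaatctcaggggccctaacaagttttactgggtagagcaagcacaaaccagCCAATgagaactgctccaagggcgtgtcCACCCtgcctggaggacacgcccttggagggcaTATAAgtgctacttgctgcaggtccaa
Hbb-y, chr7:103853208-103853457, minus strand: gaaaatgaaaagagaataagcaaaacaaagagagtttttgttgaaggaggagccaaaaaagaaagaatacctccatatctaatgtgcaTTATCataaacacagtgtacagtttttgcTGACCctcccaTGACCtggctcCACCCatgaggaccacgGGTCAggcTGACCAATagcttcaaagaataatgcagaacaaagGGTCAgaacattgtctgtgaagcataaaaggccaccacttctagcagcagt

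The promoter of Hba-a2 was the same as that of Hba-a1 over 247 aligned bases, shifted by 3. GATAA was found 1 time ahead of each of the 4 genes, at 107 bases before the start in Hba-x, 182 in Hba-a1, 185 in Hba-a2 and 162 (minus-strand match) in Hbb-y. CACCC was found 2 times in Hba-x, Hba-a1 and Hba-a2 and 1 time in Hbb-y. TGACC was found 1 time in Hba-x, 5 times in Hbb-y and 0 times in both adult alpha windows. The TGACC at 86 bases before the start of Hbb-y overlaps a CCAAT by 2 bases, and both adult alpha windows hold 1 CCAAT while that of Hba-x holds 0. TATAA was found 1 time in the 3 alpha family windows and 0 times in that of Hbb-y. Such short words are common: among 32851 mouse promoters cut to the same length, 22.6% held GATAA, 52.0% CACCC, 33.8% CCAAT, 35.2% TGACC and 22.8% TATAA. These are matches of letters and say nothing of binding.

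Reads counted in genes ranged from 35280460 to 43733715 per library. Summed site by site across the authors' table of 6012 editing sites, 14307 of 805631 covering reads (1.78%) were edited in the E861A libraries and 44391 of 813296 (5.46%) in the wild-type libraries. In these sums a read that covers several sites counts at each. Values below are read counts per 1e+06 reads (CPM) after scaling by edgeR's TMM factors, and log2 fold changes are E861A over wild type, tested by edgeR's quasi-likelihood F test with Benjamini-Hochberg adjustment over the 16511 genes. A gene was called where the adjusted p was under 0.05. The labels do not say that the embryos of a group came from different litters, so the p-values speak of the spread between these livers. In RNA of whole livers, fewer cells of a type and less RNA per cell cannot be told apart.

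Of the 7 globin genes 1 was called higher in E861A livers, Hba-x, and 0 were called lower, where 7.77% of all tested genes were called higher and 4.26% lower. By ranges, 2 of 7 genes (Hba-x and Hbb-y) lay higher in E861A livers with no overlap of the groups, and 1 of 7 (Hbb-b1) lay lower, against 19.4% and 14.5% of all tested genes. With 7 genes these counts do not stand far from the background. DESeq2 called 2 of the 7 higher (Hba-x and Hbb-y) and 1 lower (Hbb-b1), where it called 9.09% of its genes higher and 9.33% lower. With at least 1 CPM in 3 libraries 2 were called higher and 0 lower (background 8.5% and 8.33%), and with scaling by total counts again 2 higher and 0 lower (8.93% and 5.12%). With sex as a covariate 0 of the 7 were called in either direction (background 3.21% higher and 0.236% lower), and with male libraries only 0 as well (1.68% higher and 0.0447% lower).

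Hba-x (ENSMUSG00000055609), which encodes the embryonic zeta chain that pairs with beta-like chains in primitive red cells, had 3292, 3827 and 3806 CPM in E861A livers 6, 16 and 19, against 1300, 1352 and 2332 CPM in wild-type livers 2, 15 and 17. The lowest E861A value lay above the highest wild-type value. The means were 3642 ± 303 CPM in E861A livers and 1661 ± 581 CPM in wild-type livers (SD, n = 3 each). The log2 fold change was 1.13 (SE 0.25) with an adjusted p of 0.0251 by edgeR's quasi-likelihood test. With sex as a covariate the log2 fold change was 1.49 with an adjusted p of 0.0757, and with any 1 of E861A 6, E861A 16, E861A 19 or wild type 15 left out the adjusted p lay between 0.0593 and 0.115, so the call was lost in each of these fits while the sign was kept.

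Hbb-y (ENSMUSG00000052187), which encodes the embryonic epsilon-y chain, had 10047, 8652 and 8605 CPM in E861A livers 6, 16 and 19, against 4996, 6209 and 6754 CPM in wild-type livers 2, 15 and 17. All 3 E861A values lay above the 3 wild-type values. The means were 9101 ± 819 CPM in E861A livers and 5986 ± 900 CPM in wild-type livers (SD, n = 3 each). The log2 fold change was 0.60 (SE 0.18), and the adjusted p of 0.0636 by edgeR's quasi-likelihood test missed the threshold. It passed with DESeq2 (adjusted p 0.0126), with a stricter filter on low counts (0.0353) and with scaling by total counts (0.0144), at log2 fold changes of 0.56 to 0.68. It did not pass with sex as a covariate (0.87, adjusted p 0.0918). Nor did it with no filter on low counts (0.57, 0.241) or with DESeq2 size factors in edgeR (0.56, 0.0896). With each library left out in turn it passed in 0 of 6 edgeR fits, with adjusted p from 0.0663 to 0.196.

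Hbb-bh1 (ENSMUSG00000052217), which encodes the beta-h1 chain of the earliest primitive red cells, had 1160, 1266 and 1165 CPM in E861A livers 6, 16 and 19, against 735, 987 and 1590 CPM in wild-type livers 2, 15 and 17. The E861A values lay close together and inside the wild-type range. The log2 fold change was 0.12 (SE 0.27, adjusted p 0.842 by edgeR's quasi-likelihood test), and it turned to -0.12 without wild type 2. It was 0.70 with sex as a covariate (adjusted p 0.257), 0.71 with male libraries only (0.290) and 0.47 without wild type 17 (0.346). Among the embryonic genes of the beta family the read ratio of Hbb-y to Hbb-bh1 was 8.66, 6.83 and 7.38 in E861A livers 6, 16 and 19, against 6.80, 6.29 and 4.25 in wild-type livers 2, 15 and 17. This ratio lay higher in E861A livers with no overlap, by a narrow margin between E861A 16 and wild type 2.

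Hba-a1 (ENSMUSG00000069919) and Hba-a2 (ENSMUSG00000069917) encode the adult alpha chain. Their annotated coding sequences share 428 of 429 bases (99.8%), and 67.5% of the 50-base windows of the Hba-a1 transcript occur in Hba-a2, so the split of reads between them is uncertain and their sum is the firmer value. Hba-x shares 62.0% of its coding bases with Hba-a1 and 0 windows of that length. Hba-a1 had 5539, 7412 and 7128 CPM in E861A livers 6, 16 and 19, against 5129, 14895 and 7462 CPM in wild-type livers 2, 15 and 17. Hba-a2 had 1875, 2335 and 2309 CPM in E861A livers, against 1663, 4889 and 2409 CPM in wild-type livers, in the same order. In both genes wild type 15 stood far above the other 5 libraries, which overlapped.

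The summed adult alpha genes had 7415, 9747 and 9437 CPM in E861A livers 6, 16 and 19, against 6793, 19780 and 9870 CPM in wild-type livers 2, 15 and 17. The log2 fold change of the sum was -0.45 (SE 0.37, adjusted p 0.503 by edgeR's quasi-likelihood test). It turned to 0.09 without wild type 15 and to 0.38 with sex as a covariate, so these data give adult alpha RNA no direction. The read ratio of Hba-a1 to Hba-a2 was 3.07 ± 0.11 in E861A livers and 3.08 ± 0.03 in wild-type livers (SD, n = 3 each).

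Hbb-b1 (ENSMUSG00000052305) and Hbb-b2 (ENSMUSG00000073940) encode the adult beta chain. They share 443 of 444 coding bases (99.8%) and 52.3% of the 50-base windows of Hbb-b1, so here too the split is uncertain. Hbb-b1 had 5829, 4004 and 3743 CPM in E861A livers 6, 16 and 19, against 5991, 15151 and 7088 CPM in wild-type livers 2, 15 and 17. The groups did not overlap, but E861A 6 lay just under wild type 2. The log2 fold change of Hbb-b1 was -1.06 (SE 0.37), and the adjusted p of 0.116 by edgeR's quasi-likelihood test missed the threshold. DESeq2 put it past the threshold (adjusted p 0.00956), and so did the edgeR fit without wild type 2 (-1.30, adjusted p 0.0376). The value was -0.40 with sex as a covariate (adjusted p 0.641), with male libraries only -0.40 (0.647) and without wild type 15 -0.53 (0.292).

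Hbb-b2 had 4579, 3348 and 2723 CPM in E861A livers 6, 16 and 19, against 4073, 9093 and 4996 CPM in wild-type livers 2, 15 and 17. E861A 6 lay above wild type 2, so the groups overlapped, and the log2 fold change was -0.77 (SE 0.33, adjusted p 0.183 by edgeR's quasi-likelihood test). It was -0.20 with sex as a covariate (adjusted p 0.811), -0.19 with male libraries only (0.835) and -0.35 without wild type 15 (0.538). The summed adult beta genes had 10410, 7352 and 6466 CPM in E861A livers, against 10065, 24239 and 12084 CPM in wild-type livers, in the same order. The log2 fold change of the sum was -0.94 (SE 0.36, adjusted p 0.136 by edgeR's quasi-likelihood test), and -1.17 with an adjusted p of 0.0469 without wild type 2. It was -0.32 with sex as a covariate (adjusted p 0.708), -0.31 with male libraries only (0.725) and -0.46 without wild type 15 (0.382). The read ratio of Hbb-b1 to Hbb-b2 was 1.27, 1.20 and 1.37 in E861A livers 6, 16 and 19, against 1.47, 1.67 and 1.42 in wild-type livers 2, 15 and 17, lower in E861A livers with no overlap.

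**Figure D1:**
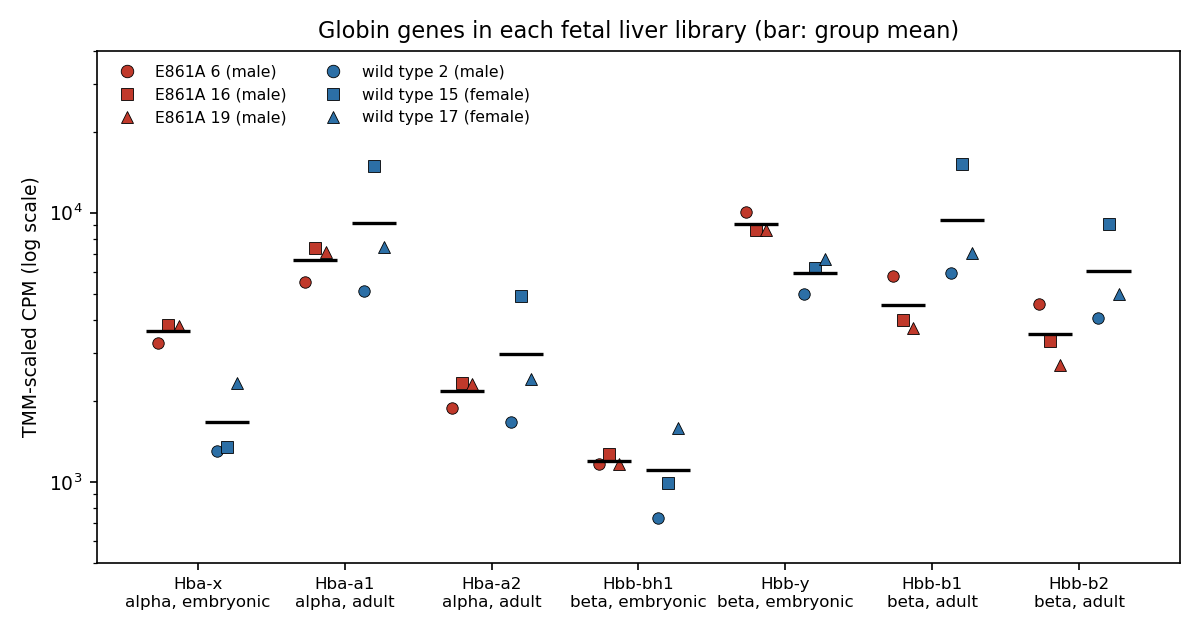
TMM-scaled CPM (log axis) of the 7 globin genes in each library, with E861A livers in red left of wild-type livers in blue, marker shapes for the livers and bars for group means. Hba-x and Hbb-y lie higher in the 3 E861A livers than in the 3 wild-type livers, and wild type 15 is highest for each of the 4 adult genes.

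In E861A livers the coefficient of variation was 15.1% for Hba-a1, 11.9% for Hba-a2, 25.1% for Hbb-b1, 26.6% for Hbb-b2, 8.31% for Hba-x, 5.001% for Hbb-bh1 and 9.0% for Hbb-y. In wild-type livers it was 55.7% for Hba-a1, 56.5% for Hba-a2, 53.2% for Hbb-b1, 44.1% for Hbb-b2, 34.99% for Hba-x, 39.8% for Hbb-bh1 and 15.04% for Hbb-y. The difference in spread was not tested. The E861A livers were all male while the wild-type livers were of both sexes, and wild type 15 was the highest library for each adult gene. The TMM factor of wild type 15, 0.877, was the lowest of the 6 libraries.

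Expressed per kilobase of annotated exon, so that genes can be set beside each other, the order of the levels differed in the 2 genotypes. In E861A livers Hbb-y led with a mean of 13769 CPM per kilobase, followed by Hba-a1 (8243), Hbb-b1 (5243), Hbb-b2 (5050), Hba-x (3882), Hba-a2 (3243) and Hbb-bh1 (1949). The ranges of Hbb-b1 and Hbb-b2 and of Hbb-b2 and Hba-x overlapped in that order, and the other neighbours did not. In wild-type livers Hba-a1 led with a mean of 11283 CPM per kilobase, followed by Hbb-b1 (10904), Hbb-y (9056), Hbb-b2 (8612), Hba-a2 (4458), Hbb-bh1 (1798) and Hba-x (1771). Each of these neighbours overlapped its next in range, so the wild-type order is loose. The places of the copies depend on how reads were split between them.

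Ratios within a library do not depend on how libraries are scaled. Hba-x made up 30.8%, 28.2% and 28.7% of the alpha family reads in E861A livers 6, 16 and 19, against 16.1%, 6.40% and 19.1% in wild-type livers 2, 15 and 17. Every E861A liver lay above every wild-type liver, with means of 29.2 ± 1.35% in E861A livers and 13.9 ± 6.64% in wild-type livers (SD, n = 3 each). The difference of 15.4 percentage points had a two-sided exact permutation p of 0.1, the smallest that 3 against 3 can give, and 0.15 after Benjamini-Hochberg adjustment over 9 such ratios.

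Hbb-y and Hbb-bh1 together made up 51.8%, 57.4% and 60.2% of the beta family reads in E861A livers 6, 16 and 19, against 36.3%, 22.9% and 40.8% in wild-type livers 2, 15 and 17. The groups again did not overlap, with means of 56.5 ± 4.24% in E861A livers and 33.3 ± 9.33% in wild-type livers (SD, n = 3 each). The difference was 23.1 percentage points (two-sided exact permutation p 0.1, adjusted 0.15). Leaving out each library in turn gave differences of 17.9 to 26.9 points for the beta family and 11.6 to 18.0 points for the alpha family. Per kilobase of exon the embryonic share was 25.4 ± 1.21% in E861A livers and 11.7 ± 5.71% in wild-type livers for the alpha family, and 60.8 ± 4.17% in E861A livers and 37.6 ± 9.89% in wild-type livers for the beta family. Wild type 2, the male wild-type liver, lay below the 3 male E861A livers in both families.

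**Figure D2:**
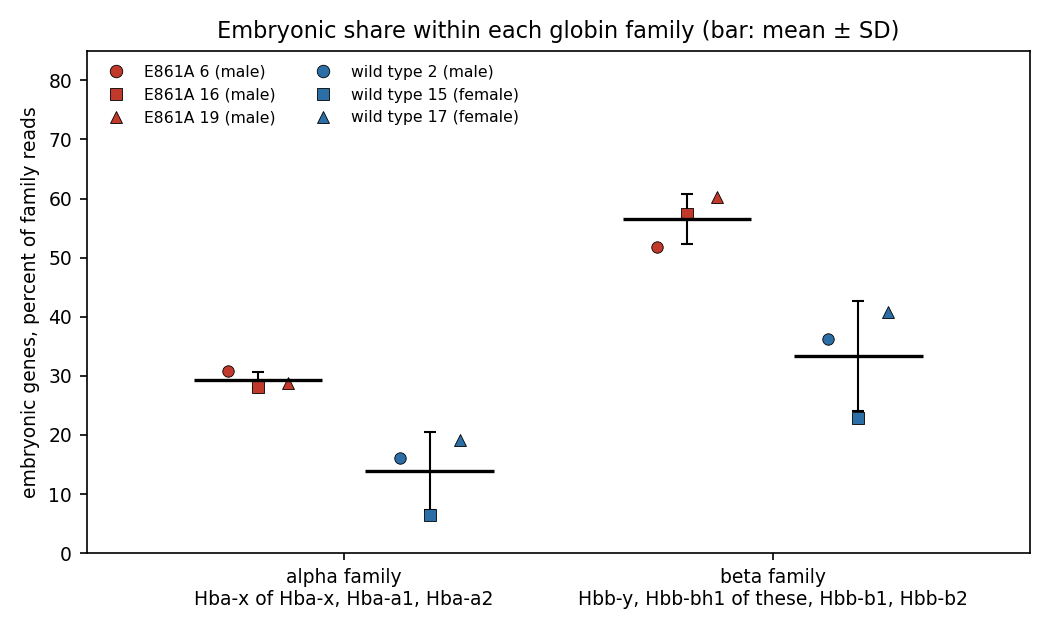
Embryonic genes as a percent of the reads of each globin family in each library, E861A livers in red left of wild-type livers in blue, with mean and SD. In the alpha family the E861A livers lie between 28.2% and 30.8% and the wild-type livers between 6.40% and 19.1%, and in the beta family no E861A liver is below 51.8% and no wild-type liver above 40.8%.

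The share of all counted reads that fell in globin genes did not differ beyond the spread between livers. The 7 genes held 3.24%, 3.10% and 3.13% of counted reads in E861A livers 6, 16 and 19, against 2.63%, 4.61% and 3.14% in wild-type livers 2, 15 and 17. The difference of -0.31 percentage points had a two-sided exact permutation p of 0.8. Alpha family reads over beta family reads had a log2 ratio of -1.01, -0.35 and -0.29 in E861A livers, against -0.96, -0.57 and -0.74 in wild-type livers, and the groups overlapped (difference 0.21, two-sided exact permutation p 0.5).

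Other red cell genes were read beside the globins. This list of 25 genes (membrane, skeleton, carbonic anhydrase and others such as Slc4a1 and Car2) had 24 tested members, of which 13 were called lower and 0 higher in E861A livers (4.26% and 7.77% of all tested genes), with a median log2 fold change of -1.31 against 0.04 over all tested genes. Icam4 was at 0 in each library, and the list shares Tal1 and Slc25a37 with the lists given further on. The summed CPM of the list ranged from 8305 to 9190 in E861A livers and from 14344 to 30119 in wild-type livers. With sex as a covariate 0 of its genes were called, where 0.236% of all tested genes were called lower, and the median was -0.75. The part of red cell number or maturity in the globin values was not tested.

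Set against the mean log2 CPM of that list in the same library, 4 of 5 globin values (Hba-x, Hbb-y, Hbb-bh1 and the adult alpha and beta sums) lay higher in E861A livers with no overlap. Hba-x stood at log2 ratios of 4.13, 4.29 and 4.37 to the list in E861A livers 6, 16 and 19, against 2.12, 1.18 and 2.58 in wild-type livers 2, 15 and 17, a difference of 2.30. The differences were 1.73 for Hbb-y, 1.31 for Hbb-bh1 and 0.80 for the adult alpha sum, each with a two-sided exact permutation p of 0.1, the smallest possible, and 0.15 after adjustment. For the adult beta sum the difference was 0.26, the groups overlapped and the two-sided exact permutation p was 0.4. Relative to other red cell RNA of the same liver, then, none of these 5 had a lower mean in E861A livers, and the embryonic ones had the widest gaps. The list itself had a mean log2 CPM of 7.55, 7.61 and 7.53 in E861A livers 6, 16 and 19. In wild-type livers 2, 15 and 17 it was 8.23, 9.22 and 8.61. This lower level of the list raises all 5 differences alike, so their sign is no result about the globins alone. Without the list the adult alpha and beta sums had log2 fold changes of -0.45 and -0.94.

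**Figure D3:**
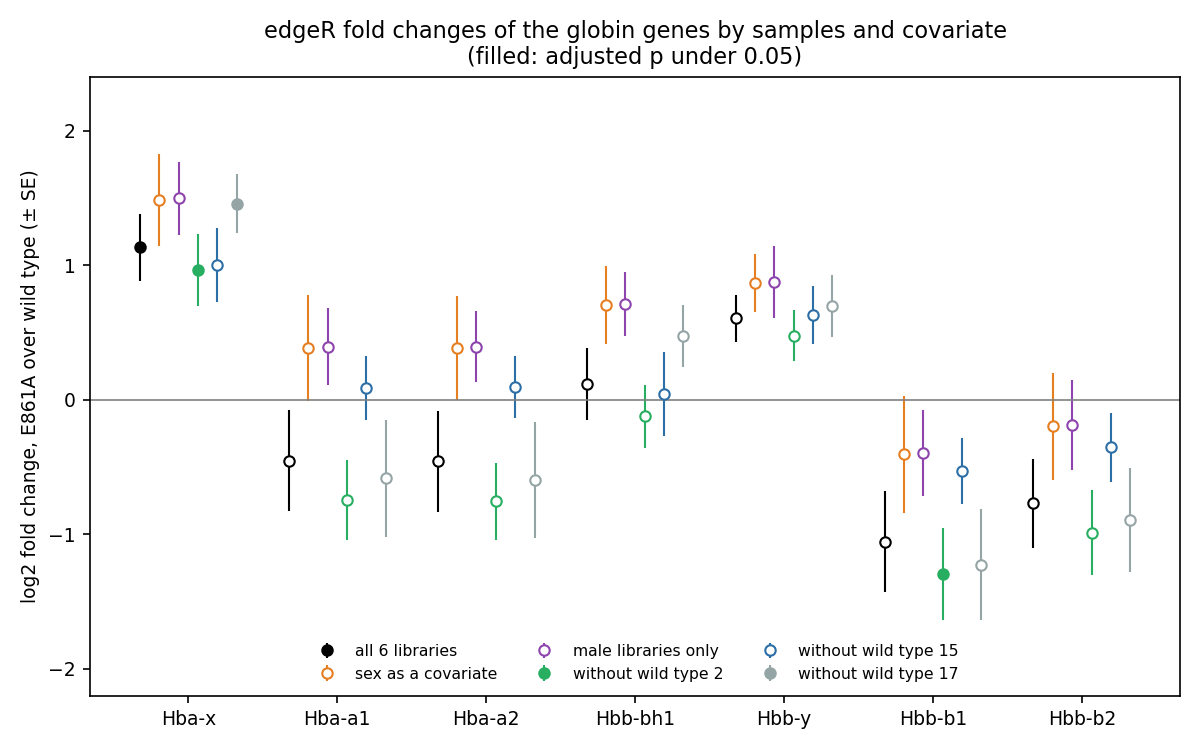
Log2 fold changes (E861A over wild type, with SE) of each globin gene from edgeR with all 6 libraries, with sex as a covariate, with male libraries only, and without each wild-type liver, where filled points have an adjusted p under 0.05. The fits with sex as a covariate and with male libraries only both compare the genotypes through wild type 2 alone. Hba-x and Hbb-y lie above 0 and Hbb-b1 and Hbb-b2 below 0 in each of the 6 fits shown, while Hba-a1 and Hba-a2 cross 0 with sex as a covariate, in males only and without wild type 15, and Hbb-bh1 without wild type 2.

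The same genes varied in pairs across the 6 libraries, given here as a description over libraries that share the genotype difference. Pearson's r of log2 CPM was 0.998 for Hba-a1 with Hba-a2 and 0.987 for Hbb-b1 with Hbb-b2, whose copies share sequence. It was 0.91 for Hba-x with Hbb-y, which lie on different chromosomes, and 0.63 for Hba-x with Hbb-bh1. Hba-x had r of -0.76 with Hbb-b1 and -0.30 with Hba-a1. Among 9781 genes with a mean of at least 10 CPM, the 5 most like Hba-x were Anxa1 (r 0.977), Mfsd11 (0.974), Zyx (0.971), Twf2 (0.971) and Pde4a (0.969). The 5 most like the adult alpha sum were Ap4b1 (0.988), Podxl (0.979), Mafk (0.977), Dnaja4 (0.977) and Gcnt1 (0.972), and those most like Hbb-bh1 were Dgcr6 (0.985), Coasy (0.944), Qsox1 (0.925), Rabac1 (0.923) and Foxh1 (0.923). None of these 15 genes was called between the genotypes, where 12% of all tested genes were called in either direction. They were picked by likeness over the same 6 libraries, and the adult alpha sum and Hbb-bh1 were themselves not called. The count therefore follows largely from the choice and is no result about these genes.

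The table held 6 further globin genes and pseudogenes, of which 4 were tested. Hbb-bh0, annotated at chr7:110998534-110998662 on the minus strand, 1597 bases past the 3' end of Hbb-y, had 4.37, 7.001 and 6.50 CPM in E861A livers 6, 16 and 19, against 1.15, 1.64 and 1.22 CPM in wild-type livers 2, 15 and 17. It was called higher in E861A livers, with a log2 fold change of 2.15 (SE 0.30, adjusted p 0.00396 by edgeR's quasi-likelihood test). Its adjusted p was 0.0442 with sex as a covariate and 0.1004 with male libraries only, where the call was lost. Per 1000 reads of Hbb-y, its neighbour, it had 0.44, 0.81 and 0.76 reads in E861A livers, against 0.23, 0.26 and 0.18 in wild-type livers. Whether the counting used strand is not given in the sources used here, and reads that run on from Hbb-y cannot be told apart from its own.

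The remaining 3 tested globin genes were not called. Hbq1b, a theta globin gene between the adult alpha copies, had a log2 fold change of 0.04 (SE 0.23), its near copy Hbq1a -0.65 (SE 0.53) and Hbb-bh2 -0.36 (SE 0.38), with adjusted p of 0.935, 0.493 and 0.615 by edgeR's quasi-likelihood test. The untested Hbb-bh3 had 11 reads in the E861A libraries and 0 in the wild-type libraries, and the pseudogene Hba-ps4 had 11 reads in the E861A libraries and 21 in the wild-type libraries.

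Within 100 kb of the alpha cluster lay 7 genes that are not globins. Of these 6 were tested and 1 was called, where 12% of all tested genes were called in either direction. Rhbdf1, a rhomboid family protein gene, had 33.3 ± 4.36 CPM in E861A livers and 19.1 ± 3.83 CPM in wild-type livers (SD, n = 3 each), with a log2 fold change of 0.80 (SE 0.18, adjusted p 0.0299 by edgeR's quasi-likelihood test). Nprl3, whose introns hold the distant enhancers of the alpha genes, had -0.07 (adjusted p 0.855), and Mpg 0.06, Il9r 0.98, Snrnp25 -0.39 and Sh3pxd2b -0.01 were not called either. Gm12109 had 3 reads in all and was not tested.

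Around the beta cluster lay 15 such genes, 13 of them olfactory receptor genes with few reads, and 3 were tested. Olfr631 was called lower (log2 fold change -1.86, SE 0.48, adjusted p 0.0441 by edgeR's quasi-likelihood test), on 24 reads in E861A libraries and 86 in wild-type libraries. Of all tested genes 4.26% were called lower. Olfr632 (-1.52, adjusted p 0.0902) and Olfr628 (0.30, adjusted p 0.619) were not called. The 12 untested ones (Olfr243, Olfr629, Olfr630, Olfr69, Olfr68, Olfr67, Olfr66, Olfr64, Olfr65, Olfr633, Gm15115 and Gm15118) had at most 17 reads each in all libraries together.

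**Figure D4:**
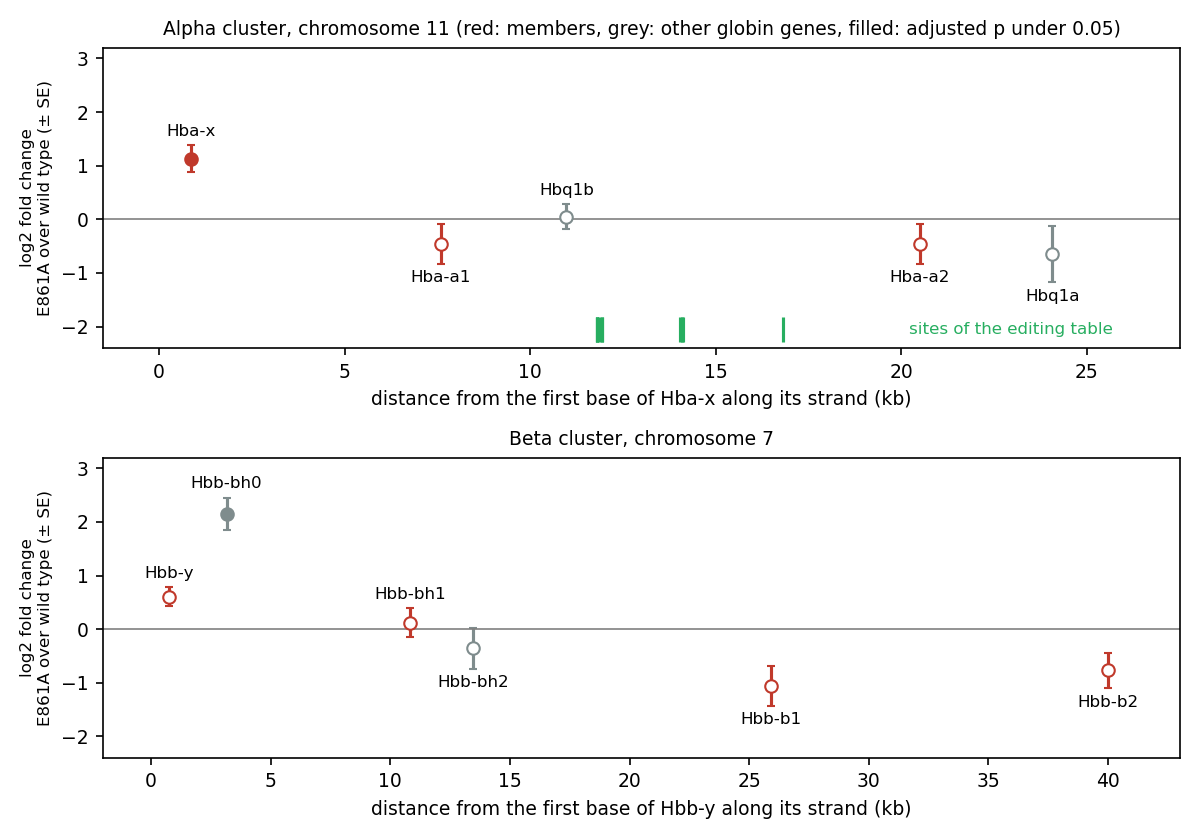
Log2 fold changes (E861A over wild type, with SE) of the tested globin genes by distance in kb along the alpha cluster (top) and the beta cluster (bottom), in the direction of transcription, with the 10 sites of the editing table that lie in the alpha cluster as green ticks. With all 6 libraries Hba-x (1.13), Hbb-y (0.60), Hbb-bh0 (2.15) and Hbb-bh1 (0.12, SE 0.27), at the starts of the clusters, lie above 0. The 4 adult genes lie below 0, as do Hbb-bh2 (-0.36) and Hbq1a (-0.65), and Hbq1b lies at 0.04.

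The editing table held 10 A-to-G sites in the alpha cluster, between the annotated Hbq1b and Hba-a2, with 0 sites in the beta cluster and 0 inside any of the 7 globin genes. The authors label those at chr11:32188206, chr11:32188209 and chr11:32188213 as 3' UTR of Hbq1b, though they lie 422 to 429 bases past its annotated end. Edited reads at these were 10 of 50, 3 of 47 and 9 of 50 in wild-type livers, and 0 of 70, 67 and 68 in E861A livers. Summed site by site over the 10 sites, 3 of 820 covering reads were edited in E861A livers and 83 of 738 in wild-type livers. A read that covers several sites counts at each of them, so these sums exceed the number of separate reads. At 9 sites 0 edited reads came from E861A livers and 1 or more from wild-type livers. At chr11:32193201 only 5 reads covered the site in E861A livers, which allows a level of up to 60%, against 33.3% in wild-type livers. At chr11:32188324 the E861A reads allow up to 3.66%, against 3.64% in wild-type livers. The zeros at these sites therefore show no lower level, while at the rest of the 9 the wild-type level lay above what the E861A reads allow. At chr11:32190511 the counts ran the other way, with 3 of 95 reads in E861A livers and 0 of 69 in wild-type livers, which allows a level of up to 4.35% there. How the sites were chosen is not given in the sources used here, so the direction at them is no independent finding.

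The most edited site with over 50 covering reads in each genotype was chr11:32188258, at 474 bases past the annotated end of Hbq1b. It had 0 edited of 22, 23 and 39 reads in E861A livers 6, 16 and 19, against 7 of 26, 10 of 34 and 7 of 25 reads in wild-type livers 2, 15 and 17. In sum that was 0 of 84 reads in E861A livers, which allows a level of up to 3.57% for counting error alone, and 24 of 85 (28.2%) in wild-type livers. The stretch around it is shown because it holds 3 of the 10 sites, and the capitals are the edited adenosines.
Alpha cluster, NCBIM37 chr11:32188248-32188342, plus strand: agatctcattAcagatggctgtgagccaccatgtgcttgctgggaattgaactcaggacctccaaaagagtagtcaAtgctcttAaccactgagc

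The other capitals are at chr11:32188324, with 0 of 82 edited reads in E861A livers and 4 of 110 in wild-type livers, and at chr11:32188332, with 0 of 85 in E861A livers and 16 of 112 in wild-type livers. The authors' table places these 3 sites between genes. The nearest tested gene, Hbq1b, did not pass the test between the genotypes, as given above.

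Genes known to control globin genes were followed as a list of 25, of which 5 were called lower in E861A livers and 0 higher, where 4.26% of all tested genes were called lower and 7.77% higher. The list's median log2 fold change was -0.44 against 0.04 over all tested genes, and 17 of the 25 lay below 0. The other red cell genes, a list that shares Tal1 with this one, had a median of -1.31. The part of red cell number or maturity in the values of the regulators was not tested. Sox6, which in the mouse represses Hbb-y in definitive red cells, had 49.6 ± 3.98 CPM in E861A livers and 145.6 ± 44.8 CPM in wild-type livers (SD, n = 3 each), with a log2 fold change of -1.55 (SE 0.23, adjusted p 0.00472 by edgeR's quasi-likelihood test). Klf1, an activator of the adult beta genes, had 175 ± 25.1 CPM in E861A livers and 356 ± 103 CPM in wild-type livers, with a log2 fold change of -1.03 (SE 0.24, adjusted p 0.0307 by the same test). The others called lower were Tal1 (-1.40), a partner of GATA1, Zbtb7a (-1.06), a repressor of fetal globin in human cells, and Klf3 (-0.97), a repressor that binds the same CACCC letters as KLF1.

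Bcl11a, which silences embryonic beta-like genes in the mouse, had 83.9 ± 2.64 CPM in E861A livers and 114 ± 18.3 CPM in wild-type livers, and its log2 fold change of -0.44 (SE 0.15) was not called (adjusted p 0.104 by edgeR's quasi-likelihood test). Myb, a transcription factor of blood progenitors, had 70.3 ± 2.83 CPM in E861A livers and 69.9 ± 20.1 CPM in wild-type livers, with a log2 fold change of 0.01 (SE 0.22, adjusted p 0.986). Gata1 (-0.89, adjusted p 0.102) and Nr2c2 (-1.02, adjusted p 0.0544), a nuclear receptor that represses embryonic globins, were not called. With sex as a covariate the list's median was -0.11 and Sox6 alone of the 25 was called (adjusted p 0.0446), where 0.236% of all tested genes were called lower, and with male libraries only 0 were called lower, where 0.0447% of all genes tested in that fit were. DESeq2 called 10 of the 25 lower, against 9.33% of the genes it tested.

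Genes that supply haem and iron or handle globin were followed as a list of 20. Of these 18 were tested, 6 were called lower and 1 higher in E861A livers (4.26% and 7.77% of all tested genes), and the median log2 fold change was -0.74 against 0.04 over all tested genes. Ahsp, the alpha chain's chaperone, and Flvcr1 are not analysed here. Those called lower included the haem synthesis enzymes Cpox (-1.65, SE 0.31) and Fech (-1.60, SE 0.28), the mitochondrial transporter Abcb10 (-0.91, SE 0.21), the transferrin receptor Tfrc (-0.95, SE 0.23) and the iron reductase Steap3 (-1.51, SE 0.26). Alas2, the first enzyme of haem synthesis in red cells, had -1.16 and was not called (adjusted p 0.0539 by edgeR's quasi-likelihood test). Hmox1, which breaks haem down and is also made by macrophages, rose, with 334 ± 104 CPM in E861A livers and 138 ± 16.7 CPM in wild-type livers (log2 fold change 1.28, SE 0.24, adjusted p 0.0141). Of the list 0 were called with sex as a covariate (0.236% of all tested genes lower, 3.21% higher) and the median was -0.30. DESeq2 called 12 lower, against 9.33% of the genes it tested. The part of red cell number or maturity in the values of this list was not tested.

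**Figure D5:**
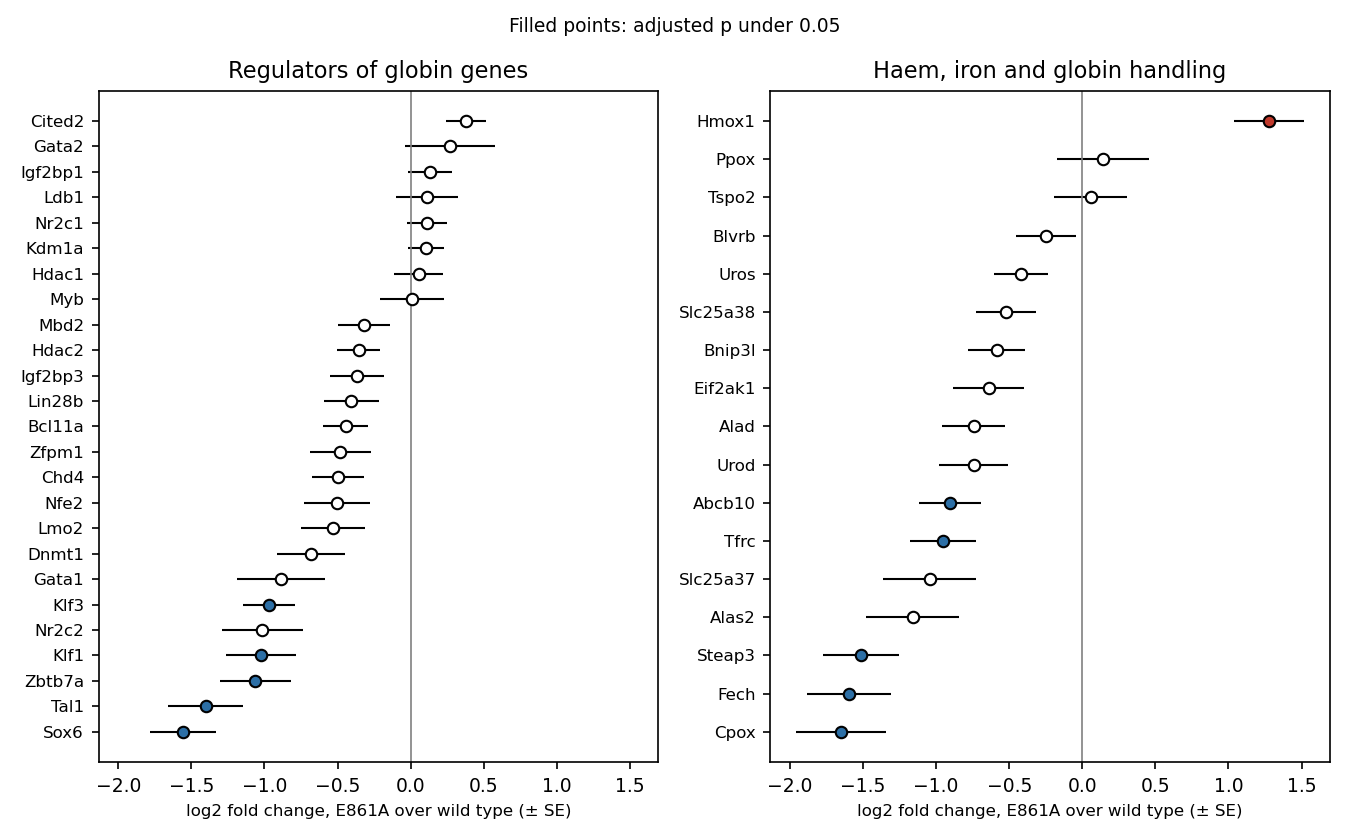
Log2 fold changes (E861A over wild type, with SE) of the 25 genes that control globins (left) and of tested genes that supply haem and iron or handle globin (right), with filled points where the edgeR adjusted p was under 0.05. Sox6 (-1.55) is lowest at left, Cpox (-1.65) is lowest at right, and Hmox1 (1.28) is the gene called higher.

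Markers of other cells in the liver were read in the same fit, as values that stand beside the globin results. In that fit 7.77% of all tested genes were called higher and 4.26% lower. Of 14 hepatoblast markers 4 were called higher and 0 lower (median 0.66), with summed CPM of 21988 to 32105 in E861A livers and 17988 to 22480 in wild-type livers. Of 10 tested endothelial markers 4 were called higher and 1 lower (median 0.65), and of 10 tested macrophage markers 2 higher and 1 lower (median 0.02). Mesenchymal (10 tested) and megakaryocyte (9 tested) markers had 0 called, with medians of 0.11 and 0.40, and 11 stem and progenitor markers had 2 called higher (median 0.01). Of 13 dissociation and stress genes 7 were called higher (median 1.34), with summed CPM of 732 to 1442 in E861A livers and 246 to 500 in wild-type livers. The 15 interferon-stimulated genes were called higher, with summed CPM of 7264 to 9992 in E861A livers and 76.5 to 126.6 in wild-type livers. With sex as a covariate 3.21% of all tested genes were called higher and 0.236% lower. In that fit 0 hepatoblast, 0 mesenchymal, 1 endothelial, 1 macrophage, 1 megakaryocyte, 2 stem and progenitor, 6 dissociation and stress and 15 interferon-stimulated genes were called higher and 0 of these lists lower. Their medians were then 0.86 for hepatoblast, -0.48 for mesenchymal, 0.70 for endothelial, 0.23 for macrophage, 0.98 for megakaryocyte, 0.68 for stem and progenitor, 2.41 for dissociation and stress and 8.28 for interferon-stimulated genes, against 8.17 for the last without the covariate. The part of these lists in the globin values was not tested.

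In the authors' deposited table of 14484 genes, 2 of the 7 globin genes were under an adjusted p of 0.05 and higher in E861A livers and 0 were lower, where 13.3% of its genes were under that threshold in either direction. The authors' deposited table gave Hba-x a log2 fold change of 1.20 (adjusted p 0.0174), Hbb-y 0.62 (0.0466), Hbb-bh1 0.20 (0.668), Hba-a1 -0.31 (0.625), Hba-a2 -0.31 (0.625), Hbb-b1 -0.95 (0.114) and Hbb-b2 -0.70 (0.184), with the sign turned to E861A over wild type. In sign these 7 values match the edgeR fit, and Hbb-y is the gene on the other side of the threshold.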

How the data were processed

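Whole-liver RNA of 3 E861A and 3 wild-type mouse embryos was sequenced, grouped by the labels. The submitters' processing notes name mm9 and NCBIM37, HTSeq and Cufflinks, limma and edgeR, TopHat2 2.0.8 with Bowtie2 2.1.0.0, BWA, Trimmomatic 0.30 and SAMtools 0.1.19, without tying a tool to a file. How reads that match more than 1 globin gene were counted, and whether strand was used, is not given in the sources used here.

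The authors deposited raw read counts per gene, which were used as they stand. The editing table holds, per the file headers, the reads at each site and the edited fraction, as deposited by the authors, whose product gave the edited reads. The authors' deposited table of the comparison holds log2 fold changes (wild type over mutant, sign turned here) and p-values. The authors' normalised table was not used. Counting intervals and floors (3 reads) cover counting error only.

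edgeR 4.0.16 in R 4.3.3 was run on all 37576 genes (filterByExpr, TMM, robust quasi-likelihood F test, Benjamini-Hochberg over 16511 genes, threshold 0.05), without covariates. Standard errors were taken as log2 fold change divided by the root of F, and CPM are counts per 1e+06 TMM-scaled reads. The main edgeR fit was tested on simulated counts with the same dispersion for every gene. That simulation did not copy the wide spread of the adult globins in wild-type livers. Near-identical adult copies were also fitted as sums. Ratios within a library were compared by two-sided exact permutation tests in Python 3.11.15 with SciPy 1.17.1. The planned gene length of the count table was replaced by exon length in GENCODE M1, since that table has no length column. Alternatives were DESeq2 1.42.0, other filters and scalings, sex as a covariate, male libraries only and each library left out. Likeness is Pearson's r of log2 CPM (offset 0.5).

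The genes named are the 7 globins, other globin genes of the table, genes within 100 kb, list members past the threshold (1 of them is not reported here) with Bcl11a and Myb, and the 5 most alike genes per target. Gata1, Nr2c2 and Alas2 were added after their values were seen. The members, the gene lists (globin regulators, globin partners, other red cell genes, hepatoblast, endothelial, macrophage, mesenchymal, megakaryocyte, stem and progenitor markers, dissociation and stress genes, interferon-stimulated genes) and the tests were chosen with earlier results of these data known.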

Additional observations from a re-analysis of the deposited data

How the results depend on the processing

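Hba-x kept its sign under each alternative run, but with sex as a covariate (log2 fold change 1.49, adjusted p 0.0757) and with male libraries only (1.496, 0.0629) it was not called. The male fit has 1 wild-type liver, which is assumed to vary like the E861A livers. With sex as a covariate the genotypes are likewise compared through wild type 2 alone, since no E861A liver was female. With each library left out in turn Hba-x ranged from 0.96 to 1.46, with adjusted p from 0.0127 to 0.115, and passed in 2 of 6 fits (without wild type 2 or 17). Hbb-y passed at 0.58 with at least 1 CPM in 3 libraries (adjusted p 0.0353), at 0.56 with DESeq2 (0.0126) and at 0.68 with total counts (0.0144). It ranged from 0.48 to 0.70 with a library left out and passed in 0 of these 6 fits (adjusted p 0.0663 to 0.196). Hbb-b1 (-1.10, 0.00956) and the adult beta sum (-0.98, 0.0198) passed with DESeq2, and without wild type 2 (-1.30, 0.0376 and -1.17, 0.0469). With a library left out these ranged from -1.30 to -0.53 and from -1.17 to -0.46, and Hbb-b2 from -0.998 to -0.35. The direction turned with sex as a covariate, with males only and without wild type 15 for Hba-a1 (0.38, 0.39 and 0.0874), Hba-a2 (0.39, 0.40 and 0.0927) and their sum (0.38, 0.39 and 0.0887), none of them called. With a library left out, the lowest values of these 3 were -0.747, -0.755 and -0.749. Hbb-bh1 turned to -0.12 without wild type 2 and reached 0.47 without wild type 17. The cause was not tested.

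Members called higher numbered 2 with at least 1 CPM in 3 libraries, DESeq2 or total counts, 0 with sex as a covariate, 0 with males only, and 0 to 1 with a library left out. Members called lower numbered 1 with DESeq2 and 0 to 1 with a library left out. The share of all tested genes called lower also moved, from 0.553% without wild type 17 and 0.879% without E861A 16 to 8.96% without wild type 2. The share called higher moved from 3.02% without E861A 16 to 10.4% without wild type 2. The counts here are to be read beside these shares and those given above for the other fits. Regulators called higher numbered 1 with total counts and 0 to 0 with a library left out. Regulators called lower numbered 10 with DESeq2, 1 with sex as a covariate, 0 with males only and 2 to 11 with a library left out, 11 of them without wild type 2. Haem, iron and globin handling genes called higher numbered 0 with sex as a covariate or males only and 0 to 1 with a library left out. Those called lower numbered 10 with at least 1 CPM in 3 libraries, 12 with DESeq2, 10 with total counts, 0 with sex as a covariate, 0 with males only, and 0 (without E861A 16) to 13 (without wild type 2) with a library left out. The difference in the globin share of reads was 0.52 percentage points with males only and 0.27 without wild type 15, and lay between -0.72 and 0.27 with a library left out. The embryonic shares kept their sign in each library left out, in males only and per kilobase. The planned per-kilobase value of the globin share of all reads was not run. No scaling moved the median of all tested genes by over 0.1 on the log2 scale. No paired analysis was possible because no liver number occurs in both genotypes. Depth does not limit the 7 globin genes, whose spread between livers exceeds counting error, but it limits the olfactory genes and the editing sites.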
